A study of Mus musculus with 6 samples.

Results

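The circadian clock genes were followed in explanted embryonic mouse ureters after LiCl, a salt that inhibits the kinase GSK3. The 10 genes were chosen by symbol, namely *Clock* and *Npas2* of the positive arm, *Per1*, *Per2*, *Per3*, *Cry1* and *Cry2* of the negative arm, the nuclear receptors *Nr1d1* and *Nr1d2*, and the output gene *Dbp*. All 10 were found among the 56748 gene identifiers, and 9 passed the filter on low counts, *Npas2* being the exception. Ureters were taken from wildtype NMRI embryos, an outbred strain, at E12.5 and kept on transwell membranes, and either 15 mM LiCl or water was present for the 18 h of culture. Each group had 3 RNA-Seq libraries, from total RNA after poly-A selection and stranded cDNA synthesis. Both groups shared the DMEM/F12-based medium, for which the sample labels list no fetal calf serum. The study's methods use serum in general but leave it out of cultures for microarrays, the heading under which the study also lists these libraries. How many ureters went into a library, whether the libraries of a group came from separate litters or cultures, and at what time of day tissue was taken are not given in the sources used here. The p-values therefore measure the spread between these libraries, which may be technical, and the values are those of a single time point.

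In the circadian loop, CLOCK or its paralog NPAS2 pairs with BMAL1, binds E-boxes and activates the *Per* and *Cry* genes, whose proteins return to the nucleus and repress that activity. A second loop runs through the REV-ERB receptors, encoded by *Nr1d1* and *Nr1d2*, which repress *Bmal1* in competition with the ROR receptors, and DBP carries the rhythm to output genes through D-boxes. Most adult peripheral tissues run such a loop, and GSK3 is among the kinases that phosphorylate clock proteins. Whether these embryonic explants ran one cannot be seen from a single time point.

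Of the 9 tested clock genes, 4 rose with LiCl (*Per1*, *Per2*, *Cry1* and *Cry2*), 3 fell (*Per3*, *Nr1d2* and *Dbp*) and 2 did not pass the test (*Clock* and *Nr1d1*). The test was edgeR's quasi-likelihood F test on the deposited counts, and calls were made where the p adjusted by Benjamini-Hochberg over all genes tested was under 0.05. Among all 18188 genes tested, 21.1% were called higher and 22.4% lower, so that calls of this kind were common in these libraries. With the study's additional threshold of a log2 fold change above 1 or below -1, *Per2* was the 1 member left, where 2.74% of all genes passed as higher, 4.59% as lower and 7.33% in either direction. The 9 tested members had a median log2 fold change of 0.08, and all genes one of -0.01. Of the 5 *Per* and *Cry* genes 4 thus rose and 1 fell, and the 1 tested gene of the positive arm did not pass.

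**Figure D1:**
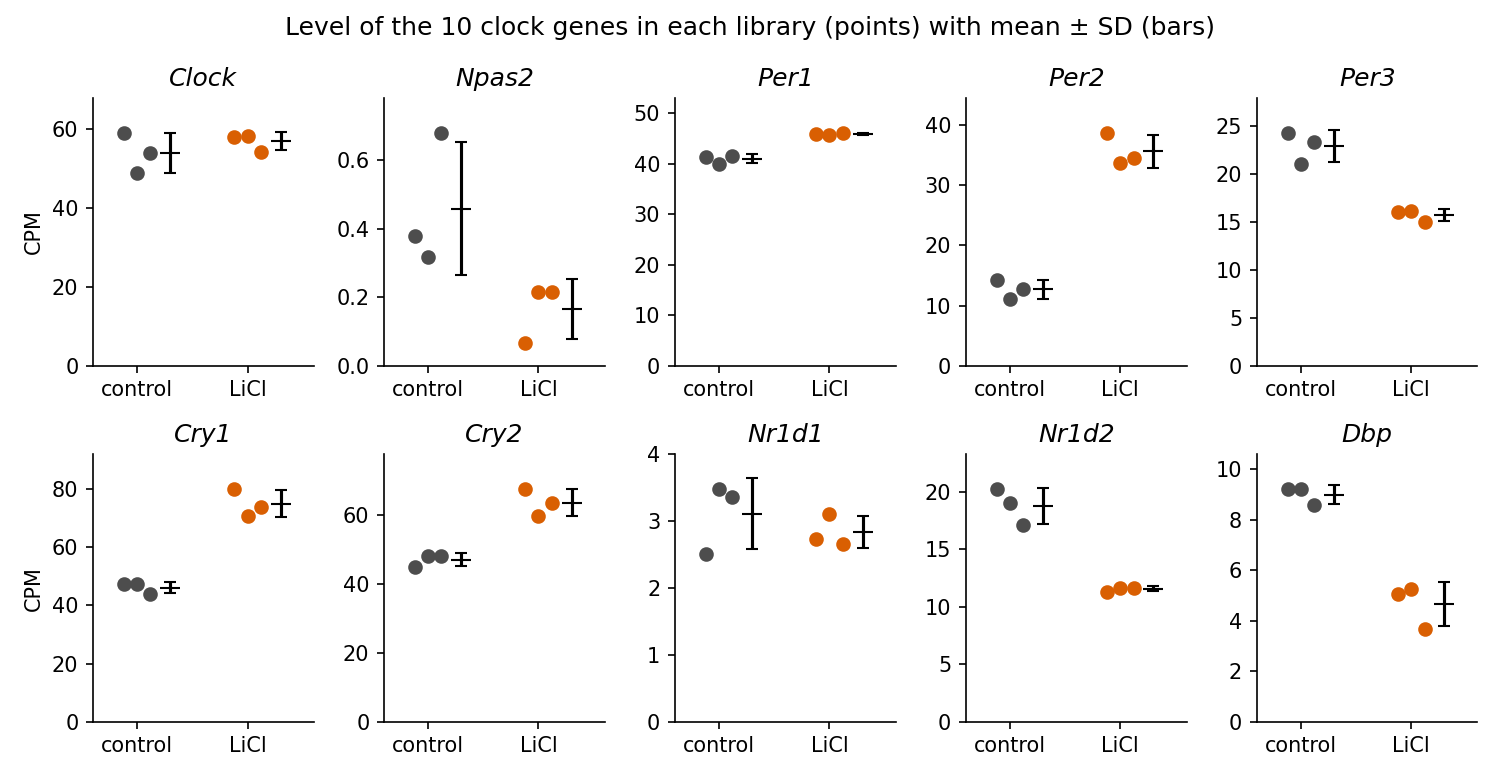
Level of each of the 10 clock genes in CPM (TMM-normalized counts relative to library size, vertical axes from 0), with 1 point per library, control in grey and LiCl in orange, and the mean ± SD of 3 libraries as black bars. The LiCl points of *Per2*, *Cry1*, *Cry2* and *Per1* lie above all control points, those of *Per3*, *Nr1d2*, *Dbp* and *Npas2* below, and those of *Clock* and *Nr1d1* overlap.

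The promoters of these genes carry some of the sequences through which the loop is known to act. RefSeq promoter windows of GRCm38.p6, each from 250 bases before to 50 bases after an annotated start, were found for 9 of the 10 genes, and *Per2* was the 1 without a window. The E-box CACGTG, searched like all motifs on both strands, stood in a window of *Per1* and of *Cry1*, and in 7.15% of all 32851 windows. The D-box TTATGTAA, the type of site bound by DBP, stood in 0.938% of all windows and among the members in that of *Per3*, with 2 copies. AGGTCA, the core of the longer sequence bound by the REV-ERB and ROR receptors, stood in 16.3% of all windows and in windows of *Clock*, *Nr1d2* and *Per1*. It is called the receptor motif below, and the longer sequence was not searched. No member window held CTTTGAT, a TCF/LEF motif found in 3.73% of windows, or TGACGTCA, a CRE found in 1.79%. None of these motifs contains another, and a match describes letters only. *Clock* had 3 windows and *Per1* had 2, so that both had more bases to match than the other members.

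The stretches upstream of the start of 4 members are printed because they hold motifs of this search. That of *Ciart*, a repressor of CLOCK-BMAL1 described further on, is added because its window held 3 E-boxes. Of the other core loop genes described further on, 10 had a window. Among these *Bhlhe41* and *Tef*, which were not called, also held an E-box and are not printed. Each reads 5′ to 3′ on the gene's strand, with the motifs in capitals, and none overlaps an annotated exon. The *Per1* E-box begins 166 bases before the start, its receptor motif, read as TGACCT because it lies on the other strand, 137 bases before it, and the *Cry1* E-box 60 bases before it. The *Per3* D-boxes begin 205 and 158 bases, the *Nr1d2* receptor motif 77 bases, and the *Ciart* E-boxes 116, 58 and 44 bases before the start.
*Per1*, E-box and receptor motif, chr11:69098753-69098818, plus strand: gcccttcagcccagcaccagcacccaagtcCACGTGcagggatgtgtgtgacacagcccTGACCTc
*Cry1*, E-box, chr10:85185080-85185144, minus strand: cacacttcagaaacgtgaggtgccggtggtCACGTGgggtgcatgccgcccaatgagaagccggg
*Per3*, D-boxes, chr4:151044786-151044900, minus strand: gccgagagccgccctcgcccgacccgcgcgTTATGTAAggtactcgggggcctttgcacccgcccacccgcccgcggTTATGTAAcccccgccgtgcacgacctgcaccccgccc
*Nr1d2*, receptor motif, chr14:18239148-18239213, minus strand: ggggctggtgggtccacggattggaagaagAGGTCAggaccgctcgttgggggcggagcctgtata
*Ciart*, E-boxes, chr3:95882254-95882374, minus strand: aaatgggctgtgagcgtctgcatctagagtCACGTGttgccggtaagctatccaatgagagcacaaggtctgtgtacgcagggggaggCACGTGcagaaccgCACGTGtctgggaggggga

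The positive arm was represented by *Clock* (ENSMUSG00000029238), which encodes the bHLH-PAS partner of BMAL1. *Clock* was at 58.9, 48.8 and 53.8 CPM in control replicates 1 to 3 and at 58.0, 58.1 and 54.1 CPM after LiCl. The groups overlapped, and the LiCl libraries lay inside the control range. The mean was 53.8 ± 5.06 CPM in controls and 56.7 ± 2.28 CPM after LiCl (SD, n = 3 each). The log2 fold change of *Clock* was 0.08 with a 95% interval from -0.08 to 0.24 (edgeR adjusted p = 0.42), so that larger changes than these bounds lie outside the interval. *Npas2* (ENSMUSG00000026077), the paralog that can replace CLOCK, was barely detected, with 11, 10 and 21 counts in control libraries and 2, 6 and 6 counts after LiCl. This corresponds to 0.378, 0.319 and 0.680 CPM against 0.065, 0.216 and 0.215 CPM, all LiCl values lying below the lowest control. *Npas2* failed the filter, and its result at this depth varied with the tool. Without a filter edgeR gave a log2 fold change of -1.47 (adjusted p = 0.036), whereas DESeq2 gave -1.50 (adjusted p = 0.12). With LiCl replicate 1, the library with 2 counts, left out, *Npas2* passed the filter at -1.10 (edgeR adjusted p = 0.12).

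In the negative arm, *Per2* (ENSMUSG00000055866) showed the largest change of the tested members. PER2 is the scaffold of the repressor complex with the CRY proteins. It was at 14.3, 11.1 and 12.8 CPM in controls and at 38.7, 33.6 and 34.5 CPM after LiCl, from 346 to 411 and from 940 to 1203 counts. Every LiCl library was far above the highest control. The mean rose from 12.7 ± 1.58 to 35.6 ± 2.70 CPM, a log2 fold change of 1.49 ± 0.10 (SE, 95% interval 1.27 to 1.70, edgeR adjusted p = 5.3e-06) or 2.80-fold. Of all genes tested, 2.82% had a larger absolute log2 fold change than *Per2*. With each library left out in turn, the value lay between 1.40 and 1.57.

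*Per1* (ENSMUSG00000020893), the paralog of *Per2* known for rapid induction by light and hormones, changed far less. It was at 41.3, 39.9 and 41.6 CPM in controls and at 45.9, 45.7 and 46.1 CPM after LiCl. The groups did not overlap but lay close together. The mean rose from 40.9 ± 0.898 to 45.9 ± 0.182 CPM, a log2 fold change of 0.16 ± 0.05 (SE, 95% interval 0.06 to 0.27, edgeR adjusted p = 0.021) or 12.1%. This call was lost without LiCl replicate 3 (0.17, adjusted p = 0.060), with scaling by library size only (0.13, adjusted p = 0.063) and with the replicate number as a block (0.17, adjusted p = 0.053).

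*Per3* (ENSMUSG00000028957), the third PER protein, which is largely dispensable for the rhythm itself, moved the other way. It was at 24.2, 21.0 and 23.3 CPM in controls and at 16.0, 16.1 and 15.0 CPM after LiCl. All LiCl values lay below the lowest control. The mean fell from 22.8 ± 1.66 to 15.7 ± 0.627 CPM, a log2 fold change of -0.54 ± 0.08 (SE, 95% interval -0.71 to -0.36, edgeR adjusted p = 0.00053). Of the 3 *Per* genes, 2 thus rose and 1 fell. *Per3* is also the member with the 2 D-boxes shown above, whereas *Timeless*, described further on, held a D-box in its window and rose. A link between D-boxes and these changes was not tested.

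Both *Cry* genes, which encode the repressors that contact CLOCK-BMAL1 directly, rose. *Cry1* (ENSMUSG00000020038) was at 47.3, 47.4 and 43.9 CPM in controls and at 80.0, 70.8 and 73.9 CPM after LiCl. *Cry2* (ENSMUSG00000068742) was at 44.8, 48.2 and 48.0 CPM in controls and at 67.4, 59.8 and 63.4 CPM after LiCl. In both genes the lowest LiCl library stood above the highest control, and LiCl replicate 1 was the highest of the 6. The mean of *Cry1* rose from 46.2 ± 2.00 to 74.9 ± 4.64 CPM, a log2 fold change of 0.70 ± 0.06 (SE, 95% interval 0.56 to 0.84, edgeR adjusted p = 3.1e-05) or 1.62-fold. The mean of *Cry2* rose from 47.0 ± 1.88 to 63.5 ± 3.82 CPM, with a log2 fold change of 0.43 ± 0.06 (SE, 95% interval 0.30 to 0.57, edgeR adjusted p = 0.00043) or 1.35-fold. The intervals of *Cry1* and *Cry2* overlapped slightly, and the difference between the changes was not tested.

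**Figure D2:**
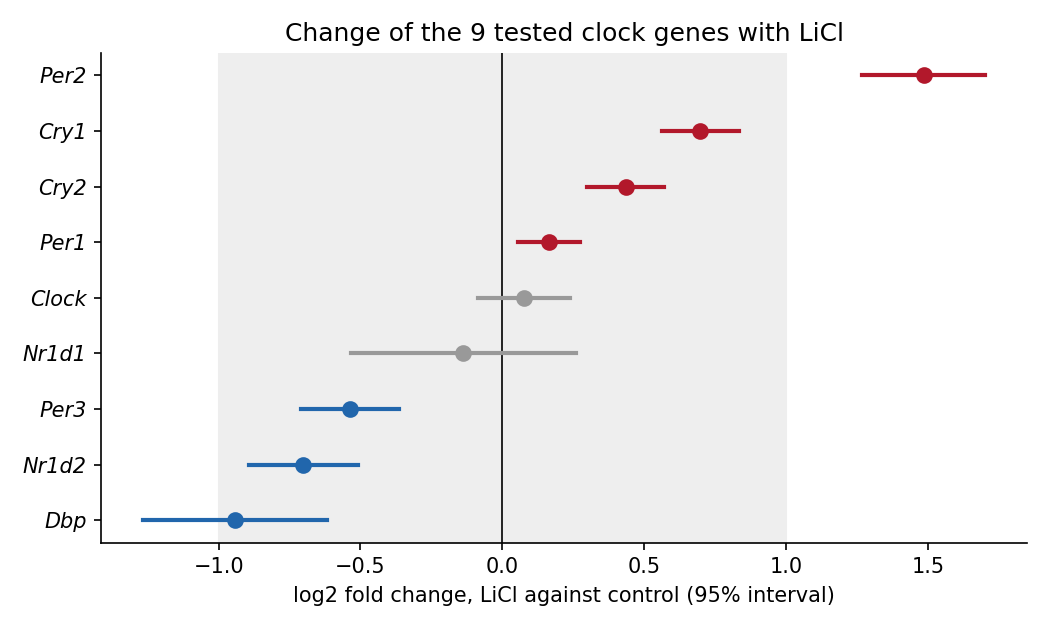
Log2 fold change of the 9 tested clock genes, LiCl against control (points), with 95% intervals (lines), called higher in red, called lower in blue and not called in grey, and the range from -1 to 1 shaded. *Per2*, at 1.49, lies outside the shaded range, and *Dbp*, at -0.94, comes closest to its lower edge.

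Of the REV-ERB receptors, *Nr1d2* fell and *Nr1d1* did not pass the test. *Nr1d2* (ENSMUSG00000021775, REV-ERB beta) was at 20.2, 19.0 and 17.1 CPM in controls and at 11.3, 11.7 and 11.7 CPM after LiCl. The groups were far apart, with the LiCl libraries nearly equal. The mean fell from 18.8 ± 1.57 to 11.5 ± 0.217 CPM, a log2 fold change of -0.70 ± 0.08 (SE, 95% interval -0.89 to -0.51, edgeR adjusted p = 0.00021). *Nr1d1* (ENSMUSG00000020889, REV-ERB alpha) was low, at 2.50, 3.48 and 3.36 CPM in controls and 2.74, 3.11 and 2.66 CPM after LiCl, from 72 to 108 counts. Its groups overlapped, and the lowest library of all was a control. The log2 fold change was -0.14 ± 0.18 (SE, 95% interval -0.53 to 0.26, edgeR adjusted p = 0.56), an interval that does not reach the value of *Nr1d2*. *Nr1d1* shares 8.55% of its exonic bases with *Thra* on the opposite strand, and the strand setting of the counting was not stated. *Thra*, a thyroid hormone receptor gene, was at 163 ± 6.68 CPM in controls and 137 ± 5.38 CPM after LiCl, a log2 fold change of -0.28 (edgeR adjusted p = 0.0019). The part of its reads in the *Nr1d1* counts was not tested.

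*Dbp* (ENSMUSG00000059824), a PAR bZIP activator and a direct E-box target of CLOCK-BMAL1, showed the largest fall of the tested members. It was at 9.22, 9.21 and 8.58 CPM in controls and at 5.08, 5.26 and 3.69 CPM after LiCl, from 263 to 286 and from 104 to 158 counts. The highest LiCl library was well below the lowest control, and LiCl replicate 3 was the lowest. The mean fell from 9.004 ± 0.365 to 4.68 ± 0.861 CPM, a log2 fold change of -0.94 ± 0.14 (SE, 95% interval -1.27 to -0.62, edgeR adjusted p = 0.00074). Of all genes tested, 9.11% had a larger absolute change. Without LiCl replicate 3 the value was -0.79, and over all single libraries left out it reached from -1.03 to -0.79. *Dbp* shares 18.0% of its exonic bases with *Sphk2*, a sphingosine kinase gene on the opposite strand. *Sphk2* was at 46.7 ± 3.12 CPM in controls and 46.6 ± 1.22 CPM after LiCl (log2 fold change -0.03, edgeR adjusted p = 0.73). *Cry2* shares 4.67% with the noncoding gene *D930015M05Rik*, which was near 1 CPM in both groups.

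The spread between libraries differed among the members. The SD of log2 CPM in controls and after LiCl was 0.261 and 0.121 for *Nr1d1*, and 0.032 and 0.0057 for *Per1*. The median over all genes tested was 0.107 in controls and 0.109 after LiCl. The spread of *Per2* was 0.180 and 0.107, and that of *Dbp* 0.059 and 0.283, the widest LiCl value among the 9 tested members. In 7 of the 9 tested members the CPM of the groups did not overlap, 4 higher and 3 lower, where 26.4% of all genes tested showed this as higher, 27.8% as lower and 54.2% in either direction.

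Levels were compared between genes with the deposited FPKM (counts scaled by 1 size factor per library and 1 constant per gene), which take the length of the gene into account. In controls *Cry1* was highest at 13.7 ± 0.584 FPKM, followed by *Cry2* at 7.36 ± 0.339 and *Per1* at 7.19 ± 0.133, which overlapped each other. *Clock* at 3.88 ± 0.340 and *Nr1d2* at 3.43 ± 0.274 came next and overlapped, then *Dbp* at 2.98 ± 0.118. *Per3* at 2.35 ± 0.158 and *Per2* at 2.15 ± 0.252 overlapped, *Nr1d1* followed at 1.00 ± 0.177, and *Npas2* was last at 0.0957 FPKM. *Cry* transcripts thus led the order and *Npas2* ended it. After LiCl the order began with *Cry1* at 22.4 ± 1.40, *Cry2* at 10.1 ± 0.613 and *Per1* at 8.16 ± 0.0508 FPKM, with no overlap between neighbours. *Per2* at 6.09 ± 0.462 had moved from rank 8 to rank 4, above *Clock* at 4.14 ± 0.158. *Nr1d2* at 2.14 ± 0.0409 stood above *Per3* at 1.64 ± 0.0618 and *Dbp* at 1.56 ± 0.285, which overlapped, and *Nr1d1* at 0.923 ± 0.0773 and *Npas2* at 0.0343 came last (SD, n = 3 throughout).

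**Figure D3:**
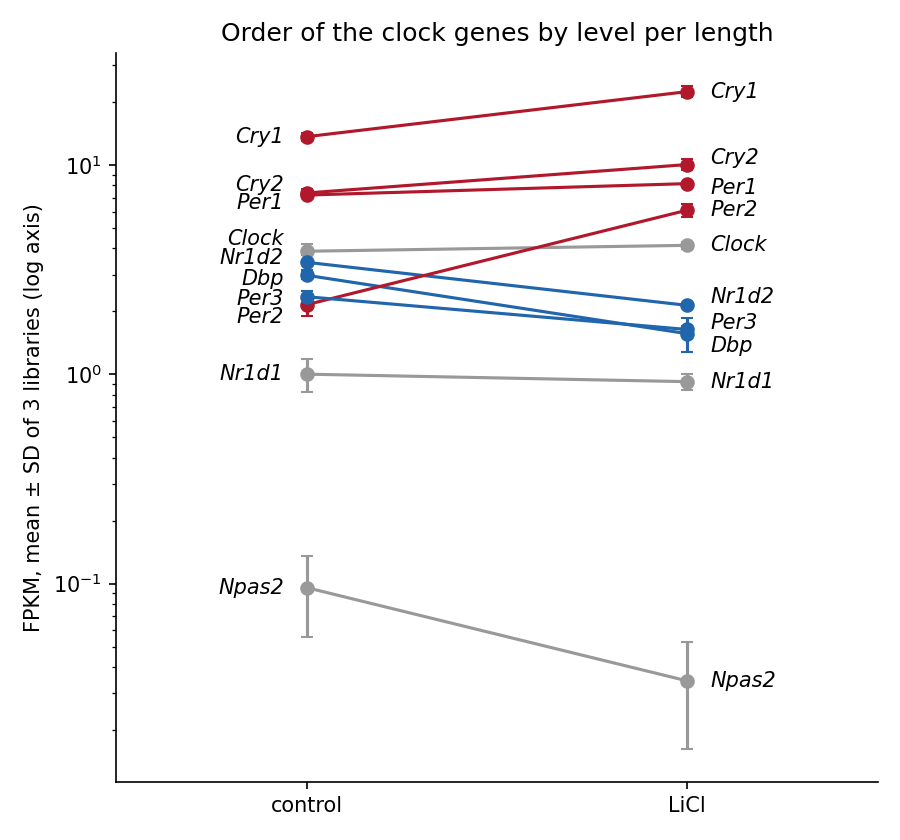
Mean FPKM ± SD of 3 libraries for the 10 clock genes in control and LiCl (log axis), red for genes called higher, blue for genes called lower and grey for genes not called or not tested. The line of *Per2* rises from 2.15 to 6.09 FPKM and crosses those of *Per3*, *Dbp*, *Nr1d2* and *Clock*.

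The balance between the arms was read within each library as the log2 ratio of FPKM to *Clock*, which does not depend on how libraries are scaled. The *Per2* to *Clock* ratio was -0.81, -0.90 and -0.84 in controls and 0.65, 0.44 and 0.58 after LiCl, changing from below to above *Clock*. The *Cry1* to *Clock* ratio was 1.72, 2.00 and 1.75 in controls and 2.50, 2.32 and 2.49 after LiCl. The *Cry2* to *Clock* ratio was 0.73, 1.10 and 0.95 against 1.34, 1.16 and 1.35. These 3 repressors were thus higher relative to *Clock* in every LiCl library than in any control, for *Cry2* by a small margin. The share of all genes that do so relative to *Clock* was not computed. The *Per3* to *Clock* ratio went from -0.77, -0.70 and -0.69 to -1.34, -1.33 and -1.34. That of *Nr1d2* went from -0.20, -0.02 and -0.31 to -1.02, -0.97 and -0.87, and that of *Dbp* from -0.48, -0.21 and -0.45 to -1.31, -1.27 and -1.68. For *Per1* the ratio overlapped between groups, at 0.77, 1.00 and 0.92 in controls and 0.95, 0.94 and 1.05 after LiCl. These ratios are given as values, without a test.

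**Figure D4:**
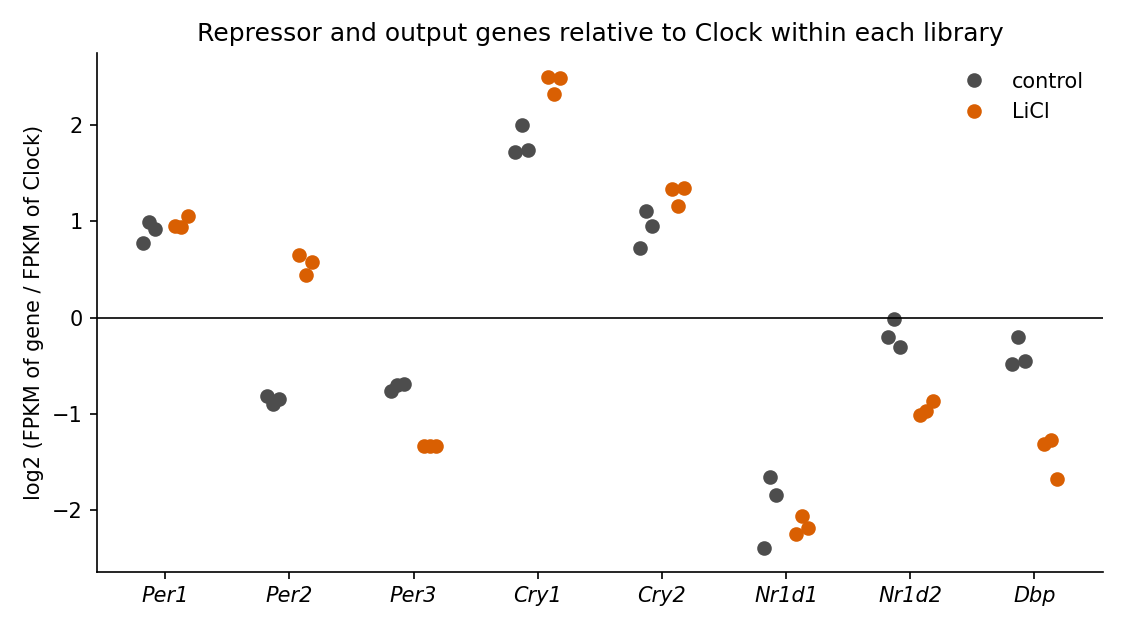
Log2 ratio of the FPKM of 8 clock genes to the FPKM of *Clock* in each library, control in grey and LiCl in orange. *Per2*, *Cry1* and *Cry2* lie higher in all LiCl libraries, *Per3*, *Nr1d2* and *Dbp* lower, and *Per1* and *Nr1d1* overlap.

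Paralogs were also set against each other within libraries. The log2 FPKM ratio of *Per1* to *Per2* was 1.59, 1.90 and 1.76 in controls and 0.30, 0.50 and 0.47 after LiCl, so that *Per1* stayed the higher of the pair in all 6 libraries. The ratio of *Cry1* to *Cry2* was 1.00, 0.89 and 0.79 in controls and 1.17, 1.16 and 1.14 after LiCl. The ratio of *Nr1d1* to *Nr1d2* was -2.20, -1.64 and -1.53 in controls and -1.23, -1.09 and -1.32 after LiCl. In each of the 3 pairs the groups did not overlap. Of all single genes tested 54.2% showed this too, and no share was computed for ratios of other gene pairs.

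The other genes of the core loop were taken as a list of 11, all tested, of which 2 rose, 1 fell and 8 did not pass the test, and the median log2 fold change of the list was -0.17. The shares of all genes tested were 21.1% higher and 22.4% lower, or 43.5% in either direction. *Arntl*, which encodes BMAL1, was at 7.37, 8.34 and 8.42 CPM in controls and 8.59, 8.27 and 8.30 CPM after LiCl. The log2 fold change was 0.06 ± 0.10 (SE, edgeR adjusted p = 0.66), so that neither *Clock* nor its partner passed the test. *Rora* and *Rorb*, which encode receptors that compete with the REV-ERBs, had log2 fold changes of -0.30 and -0.25 and were not called. *Arntl2*, *Bhlhe41* and *Nfil3*, at -0.22, 0.48 and -0.17, were not called either. *Ciart* was at 3.30, 2.96 and 3.62 CPM in controls and 5.37, 4.98 and 4.97 CPM after LiCl (log2 fold change 0.63 ± 0.14, SE, edgeR adjusted p = 0.0048). With LiCl replicate 2 as the only LiCl library its log2 fold change was 0.60. *Timeless*, a replication fork gene also linked to the clock, rose from 74.4 ± 2.08 to 111 ± 4.33 CPM (log2 fold change 0.57, edgeR adjusted p = 2.9e-05). *Bhlhe40*, an E-box-binding repressor, was the gene that fell, from 9.19 ± 0.569 to 6.57 ± 0.793 CPM (log2 fold change -0.48, edgeR adjusted p = 0.0094), and it is named after its values were seen. *Tef* and *Hlf*, the PAR bZIP relatives of *Dbp*, had log2 fold changes of 0.13 and -0.36 and were not called.

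Among 20 genes for kinases, phosphatases, ubiquitin ligases and cofactors that act on clock proteins, 5 rose, 2 fell and 13 did not pass the test (21.1% higher and 22.4% lower over all genes), and the list's median was 0.02 on the log2 scale. The transcripts of the LiCl target itself did not pass, with a log2 fold change of 0.12 ± 0.05 for *Gsk3a* (SE, edgeR adjusted p = 0.062) and 0.00 ± 0.06 for *Gsk3b* (SE, edgeR adjusted p = 0.99). *Usp2*, a deubiquitinase known to cycle in many tissues, was at 16.5, 14.1 and 14.9 CPM in controls and 34.9, 29.1 and 31.8 CPM after LiCl. Its log2 fold change of 1.07 ± 0.09 (SE, edgeR adjusted p = 2.1e-05) was the largest of this list.

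Of 12 commonly cycling output genes 10 were tested, of which 3 rose, 2 fell and 5 did not pass (21.1% higher and 22.4% lower over all genes), with a median of -0.01. *Wee1*, a kinase that holds back mitosis and is a known CLOCK-BMAL1 target, rose from 64.2 ± 0.909 to 112 ± 2.42 CPM (log2 fold change 0.81, edgeR adjusted p = 2e-06). *Lpin1*, a phosphatidate phosphatase, fell from 19.4 ± 3.32 to 11.3 ± 0.786 CPM (log2 fold change -0.78, edgeR adjusted p = 0.00096). *Pdk4*, an inhibitor of pyruvate dehydrogenase, fell from 4.10 ± 0.446 to 2.78 ± 0.066 CPM (log2 fold change -0.56, edgeR adjusted p = 0.013). This call was lost without control replicate 3 (edgeR adjusted p = 0.058).

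A list of 11 targets of CREB and the glucocorticoid receptor, which are known to be induced together with *Per1*, had 2 genes that rose, 5 that fell and 4 that did not pass (21.1% higher and 22.4% lower over all genes), with a median of -0.18. *Tsc22d3*, a classical glucocorticoid target, rose from 92.0, 93.3 and 80.9 CPM to 177, 164 and 162 CPM (log2 fold change 0.92, edgeR adjusted p = 9.3e-06). *Fos*, an immediate early gene, rose from 5.78 ± 0.589 to 9.68 ± 0.325 CPM (log2 fold change 0.74, edgeR adjusted p = 0.00067). *Klf9* fell by 0.66, *Errfi1* by 0.59 and *Cebpd* by 0.55 on the log2 scale (edgeR adjusted p = 0.0030, 6.4e-05 and 0.014). With LiCl replicate 2 as the only LiCl library, the log2 fold change of *Cebpd* was -0.64.

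**Figure D5:**
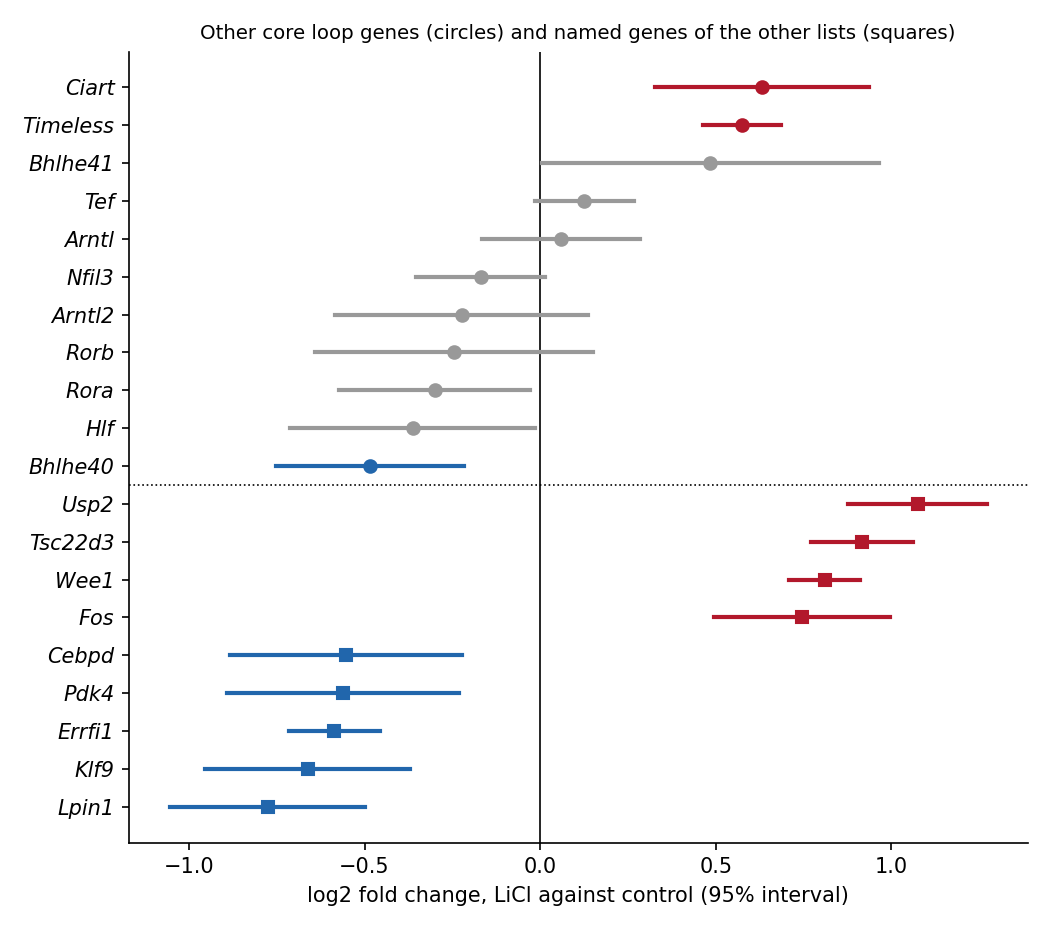
Log2 fold change, LiCl against control, with 95% intervals for the 11 other core loop genes (circles, above the dotted line) and for the genes of the other 3 lists called with a change above 0.5 or below -0.5 (squares), red for higher, blue for lower and grey for not called. *Usp2* at 1.07 lies farthest to the right and *Lpin1* at -0.78 farthest to the left.

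The explants hold several tissues, and in bulk RNA fewer cells of a type and less RNA per cell cannot be told apart. Total counts lay between 28473436 and 31266945 per library and overlapped between groups. All 8 epithelial and all 8 mesenchymal markers of the ureter were detected. Over all genes tested 21.1% were higher and 22.4% lower, and the marker counts are read beside these shares. The epithelial markers summed to between 1118 and 1413 CPM in controls and between 823 and 858 CPM after LiCl (6 of 8 fell, 1 rose). The mesenchymal markers summed to between 5121 and 5637 CPM against between 4214 and 4707 CPM (5 of 8 fell, 1 rose). Skeletal muscle markers summed to between 5.31 and 6.79 CPM in controls and to 33.4, 7.26 and 66.1 CPM in LiCl replicates 1 to 3, and 6 of 7 tested rose. Of the markers of endothelium 1 of 6 fell, of blood and macrophages 2 of 8 rose and 1 fell, of nephric mesenchyme 1 of 6 rose and 3 fell, and of neural cells 1 of 6 fell. The part of the epithelial and mesenchymal markers in the changes of the clock genes was not tested.

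Of the LiCl libraries, replicate 2 had the muscle marker sum closest to the controls, at 7.26 CPM against 5.31 to 6.79 CPM, but still above them. *Mybpc1* was at 2.04 CPM in it against 0.457 to 0.591 CPM in controls. *Actn2* was at 0.967 CPM against 0.383 to 0.685 CPM, and the other muscle markers lay within the control range. In LiCl replicate 2 *Per2* was at 33.6, *Cry1* at 70.8 and *Cry2* at 59.8 CPM, each above its control range. *Per3* at 16.1, *Nr1d2* at 11.7 and *Dbp* at 5.26 CPM were each below theirs. This had to hold, because the groups of these genes do not overlap. A fit of LiCl replicate 2 alone against the 3 controls assumed that it varies like the others, so that no call is drawn from it. The log2 fold change was 1.41 for *Per2*, 0.62 for *Cry1*, -0.77 for *Dbp* and 0.16 for *Per1*. The part of the muscle markers in the changes of the clock genes was not tested.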

How the data were processed

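The authors deposited raw counts per gene for all 6 libraries. The study's methods name HISAT2 (genome build GRCm39) and featureCounts, whereas the submitters' processing notes list fastp 0.23, STAR 2.7, featureCounts 2.0 and DESeq2 1.40. The strand setting and annotation release are not given in the sources used here. The authors also deposited FPKM per library, which for 100% of 13480 genes with over 50 counts in every library equalled the counts divided by DESeq2 size factors times a constant per gene (tolerance 0.001). Groups came from the sample labels. Beside the list of 11, 1 gene of the core loop is not reported here.

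Symbols were matched through GENCODE vM21 (GRCm38), which named 52073 of 56748 identifiers. The main test was the quasi-likelihood F test of edgeR 4.0.16 (R 4.3.3) without covariates, after filterByExpr and TMM normalization, with Benjamini-Hochberg adjustment. The coefficient and its F value gave the SE, and CPM are counts per library size after TMM. Replicates of a group differed by more than counting noise (chi-square per degree of freedom 5.51 to 13.2). The script was tested on simulated counts.

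The members, lists, markers, motifs and tests were chosen with earlier results of these data known. All members are named, and of the other lists *Arntl*, *Gsk3a*, *Gsk3b* and genes called with a log2 fold change above 0.5 or below -0.5. *Bhlhe40*, *Rora*, *Rorb*, *Tef* and *Hlf* and the overlapping genes were added once their values had been seen. The alternatives tried were DESeq2 1.42.0, RLE factors, library size only, dropping the filter or requiring 10 counts in every library, a replicate block, each library left out, limma 3.58.1 on log2(FPKM + 1), with and without a minimum mean of 0.5 FPKM, and on log2(FPKM + 0.1), a fold threshold and glmTreat.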

Additional observations from a re-analysis of the deposited data

How the results depend on the processing

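The directions of all 9 tested members were kept under RLE factors, library size only, DESeq2, both other filters, the block, limma on FPKM and each library left out, and *Per2*, *Per3*, *Cry1*, *Cry2*, *Nr1d2* and *Dbp* stayed called in each of these. Members called were 4 higher and 3 lower, beside 3844 and 4071 over all genes and 12 and 10 over the other 4 clock lists together. With a log2 fold change above 1 or below -1 required, these became 1 and 0 for members, 498 and 835 for all genes and 1 and 0 for the other lists. With edgeR's glmTreat against the same fold they became 1 and 0, 172 and 162, and 0 and 0, and counts at an unadjusted p under 0.05 were likewise 1 and 0 for members and 0 and 0 for the other lists. Both settings ask a stricter question by construction. Without LiCl replicates 1 and 3, an alternative chosen after seeing the data, all genes gave 2020 and 2167 and the other lists 8 and 4, with fewer samples. In that fit *Nr1d1*, not called, turned to 0.0023. *Gsk3b*, not called, turned to -0.035 with library size only and to -1.8e-05 with at least 10 counts in every library, and lay between -0.043 and 0.051 with single libraries left out. Leaving out 1 library gave 3088 to 3622 genes higher and 3155 to 3644 lower, 3 to 4 members in each direction, and 9 to 12 and 7 to 11 genes of the other lists. The fourth lower member was *Npas2*, tested and called without control replicate 2 (-1.70, adjusted p = 0.040). The cause of these changes was not tested.

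No pairing by replicate number was seen, although 3 libraries per group give little power to exclude it. Samples that share a number deviated from their group means with correlations of 0.04, -0.06 and 0.10, and 3 of 6 samples correlated best with their own number. With the number as a block, 3379 genes were higher and 3602 lower, with 3 and 3 members and 11 and 9 genes of the other lists.

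At 72 to 108 counts for *Nr1d1* and 2 to 21 for *Npas2*, precision was limited by depth for these members.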
